A study of Micromonas commoda with 15 samples.

Results

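Micromonas commoda is a marine green picoalga whose cell holds a chloroplast and a mitochondrion. Iron is needed by its photosystems and cytochromes and zinc by many of its enzymes, and both metals are toxic in excess. A metal oxide particle can act on a cell as a particle or through the ions it releases, and a dissolved salt of the same metal supplies ions without the added oxide particle. The gene models described here were at least halved by both metal oxide particles while their levels stayed near those of the control cultures in both dissolved salts.

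The study compared 5 groups of strain RCC299, each with 3 libraries made by poly(A) selection. Control libraries carry no label of an added particle or salt. The other cultures stood for 48 h with Fe2O3 particles (3e-05 M, labelled as 2.4 mg/L iron), with FeCl3, with ZnO particles (1e-05 M, labelled as 0.8 mg/L zinc) or with ZnSO4, each salt being given at a metal concentration labelled as equivalent. On that basis FeCl3 is listed at 2.4 mg/L iron and ZnSO4 at 0.8 mg/L zinc, as for the particle of each metal. The labelled molar and mass doses of the particles do not describe equal amounts of metal. Whether particle and salt were matched in metal is thus not settled. Additions were made 24 h after the flasks were prepared, and every library is labelled 48 h in culture, and the labels do not say from when that time was counted. All groups grew in L1 medium at 20 °C under the same light cycle, and the iron and zinc doses differ, so the metals are not matched for dose. Nothing in the labels says whether replicates came from separate cultures, so p-values measure only the spread between these libraries, which may be technical.

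Levels are given as CPM, a model's count relative to its library's total after scaling by edgeR's TMM factors, which allow for differences in composition. For each exposure, L is the log2 ratio of its mean CPM to the control mean, with 0.5 CPM added to both. The members were chosen by their values in these same libraries: a control mean of 1 to under 1000 CPM, a mean over the 5 groups of at least 5 CPM, L at most -1 with both particles, and an absolute L below 0.5 with both salts. Of 10300 gene models in the table, 7657 met the limits on level, 1009 of these were at least halved by both particles, and 54 also met the limits on the salts. The identifiers carry no gene names, and 0 of the 54 matched the RefSeq table used here, so 4 identifiers are printed and other members are given by their rank, from 1 for the largest mean fall with the particles to 54 for the smallest. All 54 passed the filter on low counts, and none carries the mark that the table gives to duplicated models. Their counts per library ran from 60 to 33801.

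The members were genes of low to middling abundance, and their level in control cultures spanned a wide range. The control mean ran from 8.23 to 854 CPM with a median of 21.3 CPM, and 42 of 54 lay under 50 CPM. The median over all 7657 models within the level limits was 30.1 CPM, and that over the 1009 models at least halved by both particles was 67.7 CPM. Together the members took between 0.115% and 0.298% of a library's counts.

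The members ranged from just past the limit of the rule to a 10.4-fold fall, and L was -1.5 or below in 17 members with Fe2O3 and in 9 with ZnO particles. With Fe2O3 particles L ran from -3.35 to -1.01 with a median of -1.35, and 5 members were at -2 or below. With ZnO particles L ran from -3.12 to -1.002 with a median of -1.196, and 2 members were at -2 or below. With FeCl3 the median was -0.25 and the range -0.49 to 0.43. With ZnSO4 the median was -0.37 and the range -0.50 to 0.49. The rule fixed these limits, so the values describe the choice and support nothing. All 54 were called lower in edgeR's quasi-likelihood test, where 35.7% of all models tested were called lower with Fe2O3 particles (71.2% in either direction) and 33.7% with ZnO particles (63.8%). Nothing is read from that count, since the rule used both contrasts.

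**Figure D1:**
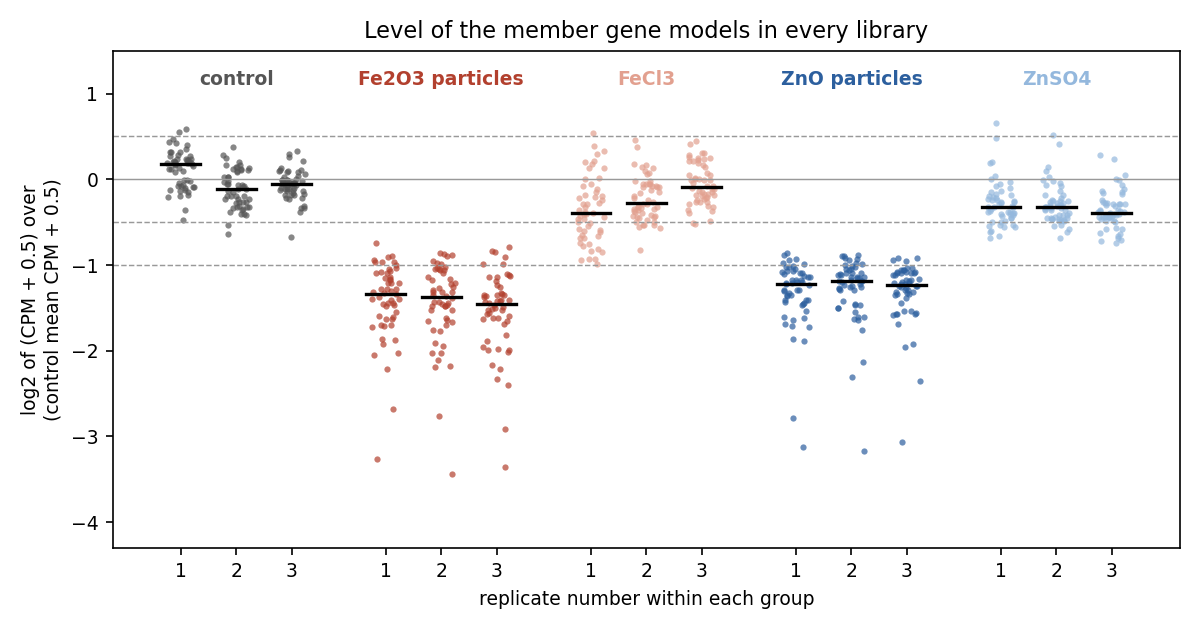
Level of the 54 members in each of the 15 libraries, as the log2 ratio of CPM to the control mean with 0.5 CPM added to both; points are members, black bars are medians, and dashed lines mark -1, -0.5 and 0.5. The medians of the 6 particle libraries lie between -1.45 and -1.19, and those of the 6 salt libraries between -0.40 and -0.09.

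The fall was present in each particle library. Median values over the members were -1.33, -1.37 and -1.45 in the 3 Fe2O3 libraries and -1.23, -1.19 and -1.24 in the 3 ZnO libraries. In a single particle library 46 to 50 of the 54 members were at -1 or below. These libraries chose the members, so the counts describe the choice only. All 6 particle libraries lay below all 9 other libraries in 54 of 54 members, against 12.1% of the 7657 models within the level limits, a share given beside the rule's own contrasts and read no further.

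The salt libraries were less uniform. FeCl3 libraries had median values of -0.40, -0.28 and -0.09 for replicates 1, 2 and 3, and 33, 48 and 52 members lay within 0.5 of the control mean. ZnSO4 libraries had medians of -0.32, -0.32 and -0.39, with 44, 48 and 44 members within 0.5. The rule used these libraries too, so the counts describe the choice only. Control libraries ran from -0.11 in replicate 2 to 0.18 in replicate 1. FeCl3 replicate 1 thus held the lowest salt values and control replicate 1 the highest control values.

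The member with the largest fall was wlab.235251.1. Control libraries held 302, 178 and 190 CPM, Fe2O3 libraries 22.8, 20.1 and 21.3 CPM, and ZnO libraries 25.1, 24.4 and 26.2 CPM. FeCl3 libraries held 184, 171 and 217 CPM and ZnSO4 libraries 201, 167 and 143 CPM. The particle groups lay far below every other library, while the salt groups overlapped the controls. The control mean of 223 ± 68.6 CPM (SD, n = 3) was 10.4-fold that with Fe2O3 particles, 21.4 ± 1.33 CPM, and 8.84-fold that with ZnO particles, 25.2 ± 0.913 CPM. The log2 fold change between the particles was 0.24 (SE 0.182, 95% interval -0.15 to 0.63), which edgeR's quasi-likelihood test did not call (adjusted p = 0.396).

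The second, wlab.8347.1, was much less abundant. Its control libraries held 16.6, 10.9 and 15.3 CPM, its Fe2O3 libraries 1.80, 1.68 and 1.45 CPM, and its ZnO libraries 1.64, 2.49 and 2.39 CPM. The salts left it at 7.17, 9.72 and 13.1 CPM with FeCl3 and 9.54, 11.4 and 10.9 CPM with ZnSO4. Both salt groups overlapped the controls and stayed above all particle libraries. Its fall was 8.67-fold with Fe2O3 and 6.56-fold with ZnO particles, and its FeCl3 value of L, -0.49, was close to the limit of the rule.

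**Figure D2:**
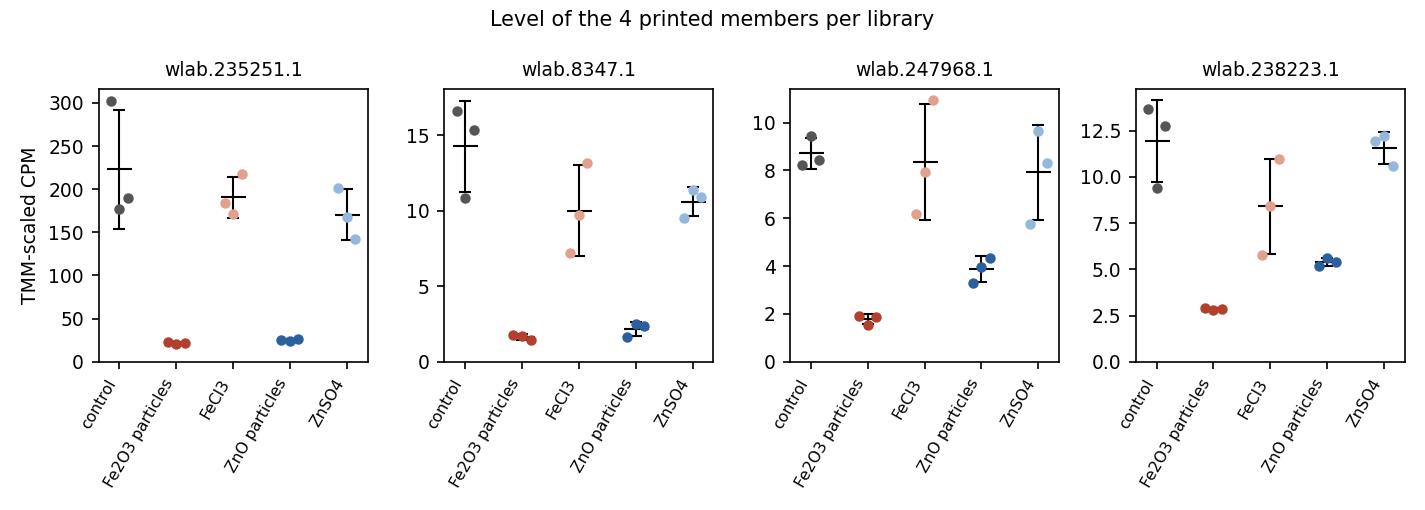
TMM-scaled CPM of the 4 printed members in each library by group; points are libraries, horizontal bars are means and whiskers are SD over 3 libraries. The particle groups hold 9.58% and 11.3% of the control mean for wlab.235251.1 and 11.5% and 15.2% for wlab.8347.1, and the other pair is lower with Fe2O3 than with ZnO particles.

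Of the members with higher ranks, the third fell to 19.7% of its control level with Fe2O3 and 23.5% with ZnO particles, from 18.5 ± 2.35 CPM (SD, n = 3). The most abundant member, of rank 49, fell only to 47.1% and 46.7% of its control mean of 854 ± 194 CPM. Its FeCl3 libraries held 473, 670 and 735 CPM and its Fe2O3 libraries 443, 466 and 299 CPM, so the lowest FeCl3 library came close to the Fe2O3 libraries. The member of rank 17 had the salt values nearest to control: 15.1 ± 2.5 CPM with FeCl3 and 14.7 ± 1.6 CPM with ZnSO4, beside 15 ± 2.91 CPM in control cultures. The same member stood at 4.42 ± 0.283 CPM with Fe2O3 and 6.53 ± 0.332 CPM with ZnO particles.

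The rule set the same limit for both particles and none on their difference, but it used the values of both. Within 0.1 of the limit lay 6 members with Fe2O3 and 15 with ZnO particles. The values that follow therefore describe the list. Of the members, 35 of 54 had a positive log2 fold change of ZnO over Fe2O3 particles, and the median was 0.16. L was lower with Fe2O3 than with ZnO particles in 64.8% of the members, beside 52.8% of models within the level limits and 73.3% of the 1009 models at least halved by both particles. The median over all 10012 models tested was 0.01, and that over the 7657 within the level limits was 0.03. In edgeR's quasi-likelihood test, adjusted over all models, 8 members were higher and 2 lower with ZnO particles at an adjusted p under 0.05. The 10 members are 18.5% of the list, close to the 19.2% called over all models tested, of which 7.49% were higher and 11.7% lower. More members were called higher than lower in each of 25 alternative settings. These settings refit the same list on nearly the same libraries, so their agreement is no separate support. All Fe2O3 libraries lay below all ZnO libraries in 19 members (23.9% of models within the level limits did so), and the reverse held in 5 members (24.1%). The number of members called was 4 without Fe2O3 replicate 2 and 6, 5 and 5 without ZnO replicates 1, 2 and 3. Calls over all models also fell in these fits, from 1922 to 1501, 1368, 1044 and 1328 in that order.

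The largest difference was that of wlab.247968.1. Its Fe2O3 libraries held 1.92, 1.53 and 1.88 CPM and its ZnO libraries 3.27, 3.97 and 4.35 CPM, without overlap, while control libraries held 8.24, 9.45 and 8.43 CPM. The level was 2.175-fold higher with ZnO than with Fe2O3 particles (log2 fold change 1.12, SE 0.237, adjusted p = 0.00394 in edgeR's quasi-likelihood test). FeCl3 libraries held 6.16, 7.95 and 10.9 CPM and ZnSO4 libraries 5.76, 9.67 and 8.31 CPM, so both salt groups overlapped the controls and exceeded every ZnO library.

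The other member printed for its smaller fall with ZnO than with Fe2O3 particles was wlab.238223.1. It stood at 2.92, 2.81 and 2.86 CPM with Fe2O3 particles and at 5.17, 5.62 and 5.4 CPM with ZnO particles. ZnO exceeded Fe2O3 particles by a log2 fold change of 0.91 with an SE of 0.205 (edgeR's quasi-likelihood test, adjusted p = 0.00581). Control libraries held 13.7, 9.42 and 12.8 CPM. ZnSO4 left it at 11.9, 12.2 and 10.6 CPM, whereas FeCl3 libraries spread from 5.80 through 8.44 to 11 CPM, the first of these only just above the ZnO libraries.

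In the opposite direction the member of rank 20 was lower with ZnO particles, at 60.1 ± 1.16 CPM, than with Fe2O3 particles, at 83.8 ± 5.55 CPM (SD, n = 3), from a control mean of 183 ± 23.2 CPM. In edgeR's quasi-likelihood test this was a log2 fold change of -0.48 with an SE of 0.128 (adjusted p = 0.0156). The member of rank 30 had -0.42 with an SE of 0.131. The calls for ranks 6, 11 and 15 held in 25 of 25 alternative settings, and that for rank 30 in 11. For the 44 members not called, the 95% intervals of the log2 fold change lay within -0.74 and 0.99, so a difference of 2-fold was outside each interval, while only 14 intervals stayed within 0.5 of 0.

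**Figure D3:**
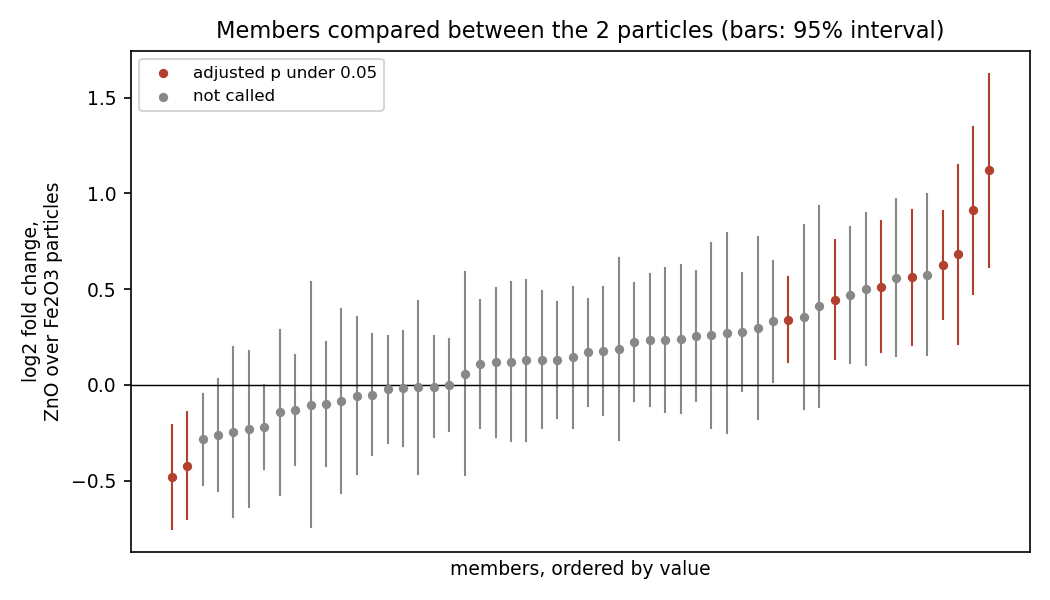
Log2 fold change of ZnO over Fe2O3 particles for the 54 members, ordered by value; bars are 95% intervals from the fit, and red marks an adjusted p under 0.05. Values run from -0.48 to 1.12, with 8 members called higher and 2 lower with ZnO particles.

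The salts were compared in the same way. The rule bounds the size of this difference but not its sign. ZnSO4 against FeCl3 had a median log2 fold change of -0.09 over the members and of -0.09 over all models tested. The test called 10 members lower and 2 higher with ZnSO4, 22.2% of the list against 53.1% of all models (22.7% higher, 30.4% lower), and the limits on both salts keep this share down. The direction of the median depends on the scaling: it was 0.15 over both the members and all models once the median model of every exposure was set to 0, and 0.17 over both with total counts only.

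The largest log2 fold change between the salts was that of the member of rank 16, and the lowest adjusted p in edgeR's quasi-likelihood test was that of rank 44 (-0.62, adjusted p = 0.000547). In the member of rank 16 FeCl3 libraries held 73.1, 69.4 and 61.4 CPM. Its ZnSO4 libraries held 31.7, 40.1 and 37.7 CPM, and its controls 55.8, 56.5 and 38.4 CPM. The salts did not overlap, all FeCl3 libraries lay above the controls, and the lowest control library lay among those with ZnSO4. The log2 fold change of ZnSO4 over FeCl3 was -0.90 (SE 0.206, adjusted p = 0.00189 in edgeR's quasi-likelihood test). The member of rank 32 went the other way, at 15, 20.6 and 25.3 CPM with FeCl3, 29.5, 25.9 and 26.1 CPM in controls and 38.1, 36.4 and 32 CPM with ZnSO4. These 3 groups did not overlap, and ZnSO4 exceeded FeCl3 by 0.81 on the log2 scale with an SE of 0.159 (edgeR's quasi-likelihood test, adjusted p = 0.000587).

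Being flat in the salts was a matter of degree. Against control, the test called 14 members lower and none higher with FeCl3 (25.9%, against 43.9% of all models, 23.4% lower), and 21 lower and 1 higher with ZnSO4 (40.7%, against 57.8%, of which 35.6% lower and 22.2% higher). Since the rule used these contrasts, these counts and the joint counts that follow describe the list only. The joint counts have no share over all models beside them. In 27 members neither salt was called, in 8 both were called lower, and the member of rank 32 was called lower with FeCl3 and higher with ZnSO4. The value of L was negative in both salts for 38 members and positive in both for 0. The 95% interval of the log2 fold change stayed within 1 of 0 in both salts for 54 of 54 members but within 0.5 in both for only 3, those of ranks 17, 20 and 45. The rule bounded these values in the same libraries, so the intervals are no evidence of flatness. The ZnSO4 calls depend on the scaling. Over all models the median log2 fold change with ZnSO4 was -0.23. Setting that median to 0 left 1 member called lower and 2 higher with ZnSO4. Leaving out Fe2O3 replicate 3, FeCl3 replicate 1 or any single ZnO or ZnSO4 library changes the reference of the scaling. Each of these fits also left 2 members called with ZnSO4, both higher, and 0 lower. Over all models they called 4087 to 5115 with ZnSO4, beside 5789 with all libraries. FeCl3 calls among the members fell to 2 without FeCl3 replicate 1 and to 5 without FeCl3 replicate 2. They fell to 7 or 8 without control replicate 1 or 3 or any single ZnO or ZnSO4 library. Over all models FeCl3 calls went from 4393 to 2961 without FeCl3 replicate 1 and to 3745 without FeCl3 replicate 2. They numbered 3407 and 3448 without control replicates 1 and 3, and 4108 to 4332 without a ZnO or ZnSO4 library.

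Both particles were below the salt of their metal in 54 of 54 members, each called by the test, against 55.3% of models called for iron (27.7% lower) and 43% for zinc (20.4% lower). The rule forces a gap of at least 0.5, so the direction is no finding. Median log2 fold changes were -1.30 for Fe2O3 particles over FeCl3 and -0.96 for ZnO particles over ZnSO4. The rule did not set the sign of the difference of these differences, though it used the same libraries. This difference was positive, meaning a smaller gap in zinc, in 40 of 54 members, with a median of 0.31 beside 0.08 over all models. The test called 9 members, all with the smaller gap in zinc (16.7%, against 28.3% of all models, 14.4% in that direction and 13.9% in the other). With the median model of every exposure set to 0, the test called 2 members in each direction and the median was 0.13. Calls among the members numbered 14 without control replicate 1, 5 without Fe2O3 replicate 1, and 2 to 4 without any single ZnO or ZnSO4 library. Over all models the same fits called 3059, 2425 and 2038 to 2279, beside 2829 with all libraries.

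The limits of the rule cut through a continuous range of values. Among the 1009 models at least halved by both particles, the median L was -0.79 with FeCl3 and -0.82 with ZnSO4. In that group 145 models were also at least halved by both salts, 183 were halved by FeCl3 and stood between -1 and -0.5 with ZnSO4, and 199 stood between -1 and -0.5 in both. With FeCl3 278 models lay within 0.5 of control, with ZnSO4 154 did, and 54 (5.35%) did in both. Only 1 model of the 1009 exceeded 0.5 with FeCl3 and 1 with ZnSO4. Just inside the limits the members nearest to them had L of -1.01 with Fe2O3, -1.002 with ZnO, -0.49 with FeCl3 and -0.4995 with ZnSO4. Just outside, the nearest models that met all other limits had -0.997, -0.996, -0.501 and -0.509. Within 0.1 outside the ZnSO4 limit there were 19 such models, beside 24 members within 0.1 inside it.

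**Figure D4:**
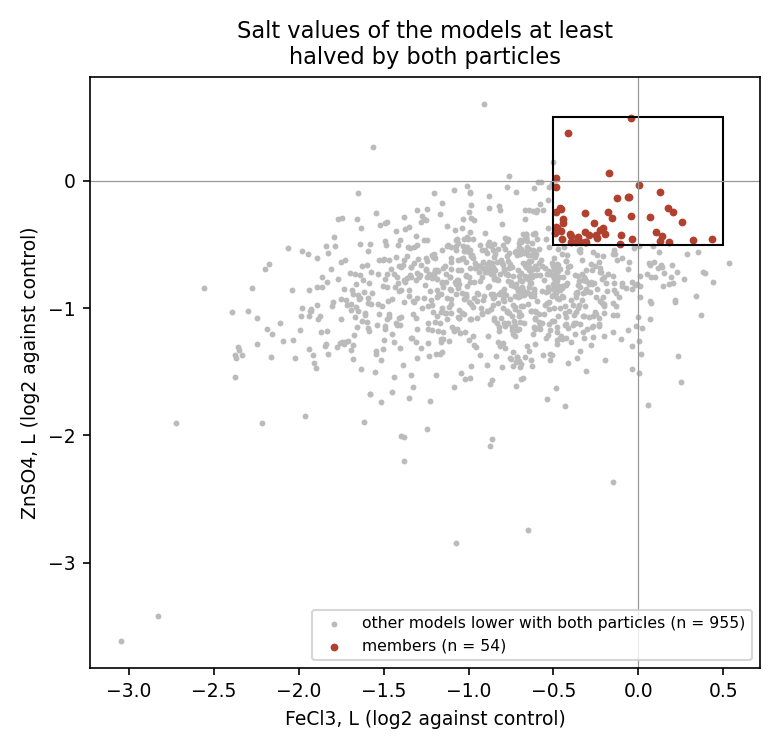
Values of L with FeCl3 and ZnSO4 for the 1009 models at least halved by both particles; red points are the 54 members, grey points the other models, and the box marks the limits of 0.5. Of the members, 38 have negative values with both salts and lie in the lower left of the box.

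The mirror image of the rule, at least doubled by both particles and within 0.5 in both salts, found 84 models, 9.77% of the 860 doubled by both. Their median L was 1.58 with Fe2O3 and 1.301 with ZnO particles, 0.12 with FeCl3 and 0.18 with ZnSO4. In both sets the larger change was more often with Fe2O3 particles, in 35 of 54 members and 62 of 84 mirror models. The 73.3% given above for the 1009 models stands beside the members only. No such share was computed for the 860 models doubled by both. In the default scaling the median salt values of both sets had the sign of the particle change. With ZnSO4 the members' median of -0.37 was near the -0.29 of all models within the level limits. With FeCl3 the members' median was -0.25, beside -0.04 for those models. Scaled by total counts alone, the members' median log2 fold changes were 0.05 with FeCl3 and 0.17 with ZnSO4. The medians over all models tested were then 0.29 and 0.31, so the members' medians still lay below them.

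A choice made on some libraries can be read in others, though replicates may be technical, so the libraries left out need not be independent. The rule was applied to the libraries of 2 replicate numbers, and L was computed from the 5 libraries of the number left out. With number 1, 2 or 3 left out, 64, 39 and 33 models were chosen. In the libraries left out every one of them was lower than control with both particles. The share of all models that was lower with both was not computed, so nothing is read from that count. At least halved by both were 90.6%, 61.5% and 63.6% of the chosen models, where 17.5%, 10.9% and 12.7% of all models within the level limits were. Within 0.5 of control in both salts were 23.4%, 64.1% and 60.6%, where 19.8%, 43.9% and 33.9% of all models were. With number 1 left out, the share that stayed flat was close to that of all models. The median FeCl3 value of the chosen models was -0.19 in the libraries that chose them and -0.64 in those of number 1, which hold the highest control and the lowest FeCl3 library.

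Replicate spread in the members was like that of other models. The median coefficient of variation was 17% in control cultures, 12.7% with Fe2O3 particles, 12.5% with FeCl3, 7.39% with ZnO particles and 9.15% with ZnSO4. Over all models within the level limits it was 17%, 14.3%, 12.8%, 6.57% and 10.1%. The biological coefficient of variation estimated by edgeR had a median of 14.5% over the members and of 14.6% over those models.

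Which models make up the list depends on the scaling. TMM takes 1 library as its reference, by default Fe2O3 replicate 3 here. With each of the other 14 libraries as reference, 51 to 101 models met the rule, and 19 to 52 of the 54 members were among them. The median L of the members stayed between -1.37 and -1.12 with Fe2O3 and between -1.19 and -0.99 with ZnO particles under those references, and 20 to 53 members were still at least halved by both particles. Members of ranks 3, 4, 5, 18, 21 and 27 met the rule whichever 1 of the 15 libraries was left out. Without FeCl3 replicate 1 112 models met it, without ZnSO4 replicate 3 85 did, and without control replicate 2 36 did. Total library counts as the only scaling kept 10 of the 54 members among the 99 models that then met the rule.

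**Figure D5:**
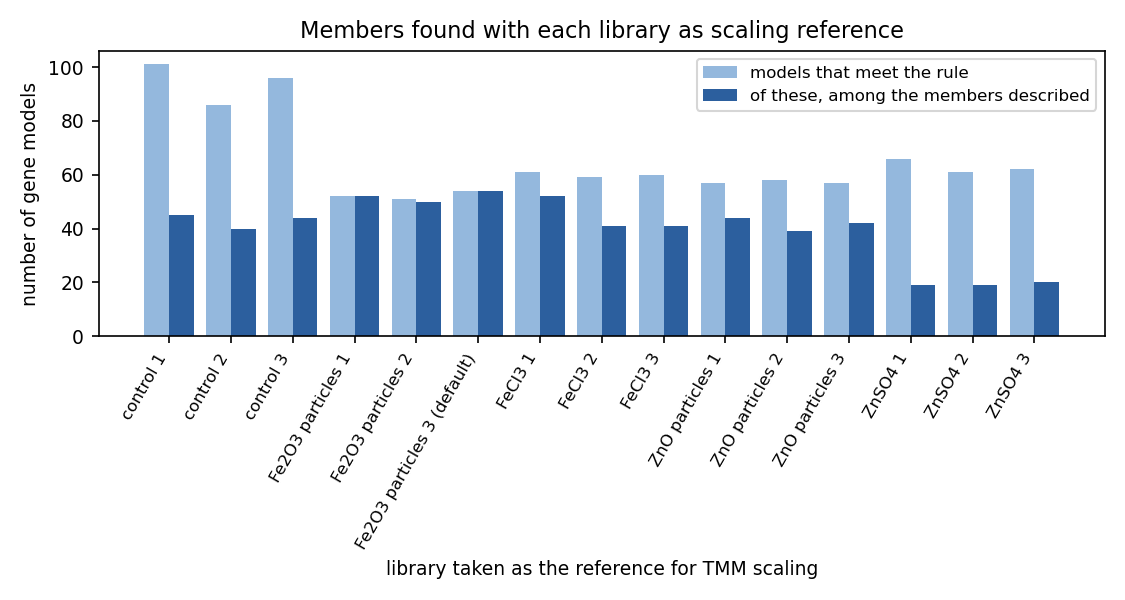
Number of gene models that meet the rule with each library as the TMM reference (light bars), and how many of them are among the 54 members (dark bars). With a control library as reference 86 to 101 models meet the rule, and with a ZnSO4 library 19 or 20 of the members do.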

How the data were processed

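The authors deposited 1 table of raw counts, whole numbers for each gene model in 15 libraries. Tools named in the submitters' processing notes are RSEM 1.3.0, STAR, CASAVA 2.17 and Trim Galore 0.4.0, with no role or order. The table's name speaks of HTSeq counts, so the counting program is not settled, and no source used here gives the genome build or annotation. Library totals ran from 33473041 to 48969454 counts, and TMM factors over all rows from 0.704 to 1.34. No 2 replicates of a group agreed within sampling noise.

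CPM and L were computed as the report states, with TMM on all rows. Counts were tested in R 4.3.3 with edgeR 4.0.16 (filterByExpr with a minimum count of 10, 10012 models kept, TMM, 1 quasi-likelihood fit over all libraries, 1 term for the group, Benjamini-Hochberg adjustment over all models tested, threshold 0.05). The SE of a log2 fold change is its size divided by the square root of F, and 95% intervals use the fit's degrees of freedom. The steps were tested on simulated data. DESeq2 1.42.0 and limma 3.58.1 (voom) served as alternatives.

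The members and all comparisons were chosen with earlier results of these data known. Printed identifiers are the 2 members with the lowest mean L of the particles and the 2 with the largest rise from Fe2O3 to ZnO particles among called members without overlap. Ranks singled out beside them were chosen after their values were seen. No sequence is shown, because the identifiers match no entry of the RefSeq table.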

Additional observations from a re-analysis of the deposited data

Results flagged for a closer look

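In 9 members the gap between particle and salt differed between zinc and iron by the test of that difference itself, with the smaller gap in zinc each time. They are 16.7% of the members, beside 28.3% of all models called and 14.4% in that direction, and centring each exposure left 2 members called in each direction. The log2 differences, zinc minus iron, were 1.20 for rank 11 (wlab.247968.1) and 1.19 for rank 13. They were 0.78 for rank 37, 0.71 for rank 25, 0.71 for rank 52 and 0.64 for rank 14. The remaining ones were 0.61 for rank 44, 0.57 for rank 6 and 0.53 for rank 27. In edgeR's quasi-likelihood test the adjusted p ran from 0.00946 for rank 13 to 0.0435 for rank 14. Of 25 alternative settings, 25 kept the call for rank 13, 21 that for rank 11, and 7 those for ranks 6 and 14. The member of rank 13 held 103, 52.3 and 55.6 CPM in control libraries, 22.4, 20.2 and 15.3 CPM with Fe2O3 particles, 70.5, 73.3 and 82.9 CPM with FeCl3, 30.9, 32.6 and 29.3 CPM with ZnO particles and 60.3, 55.6 and 43.3 CPM with ZnSO4. Iron and zinc doses were not matched, so metal and dose cannot be told apart in these values.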

How the results depend on the processing

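The fall with both particles was called in 54 of 54 members under every alternative, as was the gap between ZnO particles and ZnSO4. Fe2O3 particles against FeCl3 gave 51 to 54 when 1 library was left out. The rule used the fall and forces the gaps, so these counts describe the choice and support nothing. With the other TMM references, 20 to 53 members were still at least halved by both particles. The number of models meeting the rule (54) was 99 with total counts, 17 and 87 with salt limits of 0.4 and 0.6, 20 and 115 with particle limits of -1.2 and -0.8, and 36 (without control replicate 2) to 112 (without FeCl3 replicate 1) with 1 library left out.

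Members called with FeCl3 against control (14) were 8 with total counts and 5 with a mean of at least 5 CPM, all of these higher, 3 at an adjusted p under 0.01, 0 in a fit of those groups alone, and 2 to 19 with 1 library left out. With ZnSO4 (22) they were 5 with total counts, 2 with at least 5 CPM and 2 in a fit of those groups alone, all of these higher where the main result was 21 lower and 1 higher, 3 after centring (2 higher), 8 at an adjusted p under 0.01, 11 with TMM averaged over all reference libraries (chosen after seeing the data), and 2 to 27 with 1 library left out. The value of 2, both higher, arose in the 8 fits whose TMM reference became control replicate 2. ZnO against Fe2O3 particles (10) gave 6 with limma voom, 3 at 0.01 and 4 to 14 with 1 library left out. ZnSO4 against FeCl3 (12) gave 7 at 0.01 and 9 to 15. The difference of differences (9) gave 5 with total counts, 4 after centring, 1 at 0.01 and 2 to 14. These counts have no share over all models beside them and show only how far each moved.

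Among the printed members, log2 changes that turned sign were all in the salts. The turned value had an adjusted p under 0.05 only for wlab.238223.1 with ZnSO4 and total counts (0.51, edgeR adjusted p = 0.0339). For wlab.235251.1 they became 0.085 (FeCl3), 0.17 (ZnSO4) and 0.085 (ZnSO4 against FeCl3) with total counts, and the last 0.075 after centring. ZnSO4 gave 0.14 for wlab.8347.1 with total counts. For wlab.247968.1 FeCl3 gave 0.19 with total counts and 0.12 with at least 5 CPM. ZnSO4 gave 0.40, 0.15, 0.087 and 0.088 with total counts, at least 5 CPM, centring and the groups alone. ZnSO4 against FeCl3 gave 0.0026, 0.21, 0.012, 0.038, 0.0028 and 0.16 with DESeq2 factors, total counts, averaged TMM, at least 5 CPM, DESeq2 and centring. For wlab.238223.1 ZnSO4 gave 0.020, 0.51, 0.080, 0.25, 0.021, 0.18 and 0.18 with DESeq2 factors, total counts, averaged TMM, at least 5 CPM, DESeq2, centring and the groups alone. With 1 library left out the ranges were -0.36 to 0.052 (FeCl3) and -0.24 to 0.11 (between salts) for wlab.235251.1, -0.19 to 0.21 (ZnSO4) for wlab.238223.1, and -0.30 to 0.14 (FeCl3), -0.18 to 0.28 (ZnSO4) and -0.11 to 0.31 (between salts) for wlab.247968.1. The cause of these turns was not tested.

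Replicate numbers were not taken as pairs, because the labels do not say what they mark and only 20 of 30 same-number pairs correlated above 0.1. As a hint from the data that numbers are shared in part, the median r was 0.25 in those pairs and -0.09 in pairs of different numbers (18 of 60 above 0.1), and 11 of 15 libraries correlated best with their own number. With the replicate block, 12 members were called with FeCl3, 21 with ZnSO4, 11 between particles, 14 between salts and 11 for the difference of differences. In the same order, 4427, 5858, 1986, 5452 and 2988 of all 10012 models tested were called. The 3 libraries a group limit the precision, and for the members with the fewest counts (60 in the lowest library) counting error adds to it.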

Other observations

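The members of ranks 5 and 7 stand on adjacent rows of the table, the only such pair among the 54, and the labels do not say how the rows are ordered. Their control means were 13.5 ± 3.15 and 38.5 ± 8.24 CPM (SD, n = 3). Fe2O3 particles left 25.5% and 25.8% of these levels, and ZnO particles 28.9% and 35.7%.

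The member of rank 40 had the highest ZnSO4 value of L, 0.49. Its control libraries held 38.7, 20.8 and 23.8 CPM, so that the highest of them reached into the ZnSO4 libraries, at 43.9, 39.8 and 34 CPM, and its Fe2O3 libraries stood at 12.2, 11.3 and 9.74 CPM.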
